A study of Arabidopsis thaliana with 12 samples.

Results

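The genes described here are CHLM, AT1G74470 and Z-ISO, 3 nuclear genes for enzymes of plastid pigment synthesis. They were chosen as the genes of these names that have a probe paired with exactly 1 gene in the platform annotation. Each has 1 such probe, so the members are 3 of the 691 genes that have such a probe, on an array of 3439 probes. The arrays measured total RNA of wild-type Columbia 0 plants of Arabidopsis thaliana, 6 arrays from plants given water for 8 h (H2O) and 6 from plants given water for 4 h and then staurosporine for 4 h (pStau). Staurosporine blocks a broad range of protein kinases, and the labels give its dose as 25 mM at pH 5.5, a unit that was not checked against any other source. The labels name no tissue, plant age or solvent, nor do they tell whether different plants lie behind the 6 arrays of a group. The p-values therefore refer to the spread among arrays, which may be technical.

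Chlorophyll is built in the plastid from a tetrapyrrole ring and a phytyl tail. CHLM, the magnesium-protoporphyrin IX methyltransferase, acts on the ring just after magnesium has been inserted. AT1G74470 is annotated as a geranylgeranyl reductase, and is known as CHLP, the enzyme that reduces the geranylgeranyl group to the phytyl tail used in chlorophyll and in tocopherols. Z-ISO, the zeta-carotene isomerase, acts in the carotenoid branch between the desaturations that turn phytoene into lycopene. Geranylgeranyl diphosphate from the plastid isoprenoid pathway feeds both the phytyl tail and the carotenoids.

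The 3 genes did not move together. Z-ISO was 3.05-fold lower and CHLM 1.67-fold lower in pStau, while AT1G74470 was 1.26-fold higher. All 3 passed an adjusted p threshold of 0.05 in limma, where 35.3% of the 3256 tested probes passed, 16.5% higher and 18.8% lower in pStau. A count of 3 passing members is therefore read against a background in which more than 1 probe in 3 passed. None of the members was listed at 0 on any array, so their values do not depend on the floor set for low intensities. Levels below are intensities after quantile normalisation, and percentiles are the rank of a probe among all 3439 probes of its own array.

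As a check for green tissue, the probes of the photosystem genes PSAN, PSBW, PSBY, PSB27 and LHB1B2 had intensities between percentiles 86.5 and 99.8 of the mean H2O level among tested probes. Probes differ in response, so these percentiles describe signal and do not rank transcripts. In pStau the log2 changes of these genes were -1.97, 0.42, -0.51, 0.12 (limma adjusted p = 0.781, not passing) and -0.84, in that order, under the reported normalisation. On the same scale the probes of CHLM, Z-ISO and AT1G74470 lay at percentiles 57.6, 84.4 and 89.1. The pStau arrays had lower median deposited intensities, from 0.169 to 0.392, than the H2O arrays, from 0.405 to 0.485, and a larger share of zeros, from 12.3% to 17.3% against 11.5% to 13.1%. The part of these array-wide differences in the members' changes was not tested beyond the other scalings given below. Fewer cells with a transcript and less of it per cell cannot be told apart in such RNA.

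**Figure D1:**
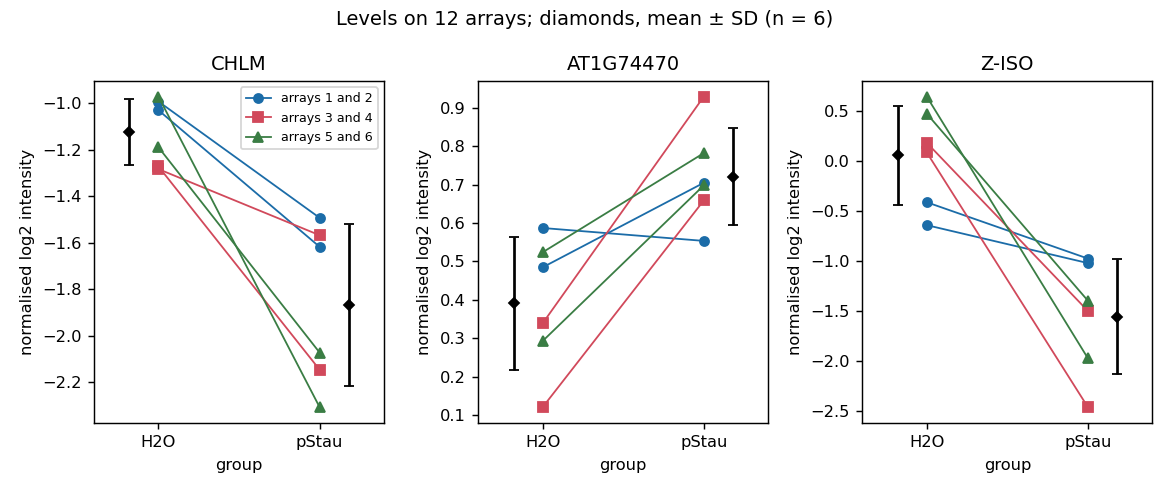
Normalised log2 intensity (vertical axis) of CHLM, AT1G74470 and Z-ISO on each of 12 arrays, by group (horizontal axis). Lines join the H2O and pStau arrays of the same number, colours and symbols mark consecutive numbers, and diamonds with bars give the mean ± SD of 6 arrays; the groups do not overlap for CHLM and Z-ISO, and overlap on 1 pStau array for AT1G74470.

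For the ring enzyme, the normalised intensity of CHLM on the 6 H2O arrays had a lowest value of 0.411, a median of 0.464 and a highest value of 0.510. On the 6 pStau arrays CHLM had a lowest value of 0.202, a median of 0.282 and a highest value of 0.355. All 6 pStau arrays lay below every H2O array, a separation in this direction that 9.28% of tested probes showed. CHLM fell by 0.74 on the log2 scale (SE 0.15, 95% interval -1.08 to -0.41, n = 6 arrays per group, limma adjusted p = 0.00406), or 1.67-fold (95% interval 1.33 to 2.11). The spread between arrays was wider in pStau (SD 0.35 on the log2 scale) than in H2O (SD 0.14). The H2O arrays were thus close to each other, while the pStau arrays fell into a higher trio and a lower trio. The higher trio was arrays 1, 2 and 3, at log2 levels of -1.49, -1.62 and -1.57, and the lower trio was arrays 4, 5 and 6, at -2.15, -2.31 and -2.07.

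CHLM was lower in pStau than in H2O at each of the 6 array numbers, with log2 changes from -1.34 at number 5 to -0.28 at number 3, a pattern that 21.7% of tested probes shared. Its rank within the array also fell without overlap, from percentiles 55.0 to 62.8 in H2O to percentiles 32.5 to 49.8 in pStau (mean change -16.7 percentile points, exact permutation p = 0.00216, two-sided, the smallest that 6 against 6 arrays can give). On this scale 8.32% of tested probes were lower in pStau without overlap. In the deposited intensities, before any normalisation, CHLM ran from 0.459 to 0.638 in H2O and from 0.103 to 0.387 in pStau. The log2 change as deposited was -1.61, against a median change of all tested probes of -0.80, which puts CHLM at -0.81 relative to that median. CHLM did not pass when consecutive arrays formed a random block (limma adjusted p = 0.0567, with 16.1% of probes passing) or were averaged (limma adjusted p = 0.123). Nor did CHLM pass when arrays 5 and 6 were left out (log2 change -0.56, limma adjusted p = 0.0616).

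For the enzyme of the phytyl tail, the normalised intensity of AT1G74470 on the H2O arrays had a lowest value of 1.09, a median of 1.33 and a highest value of 1.50. On the pStau arrays AT1G74470 had a lowest value of 1.47, a median of 1.63 and a highest value of 1.90. Of the 6 pStau arrays, 5 lay above every H2O array, as did at least 5 for 13.3% of tested probes. The exception was pStau array 1 at a log2 level of 0.55, which lay between H2O arrays 5 and 1 at 0.52 and 0.59. AT1G74470 rose by a log2 change of 0.33 (SE 0.093, 95% interval 0.12 to 0.53, n = 6 arrays per group, limma adjusted p = 0.0187), or 1.26-fold (95% interval 1.09 to 1.45). The mean change was larger than the SD of either group, 0.17 in H2O and 0.13 in pStau on the log2 scale.

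By array number, the log2 change of AT1G74470 ran from -0.034 at number 1 to 0.59 at number 3 and was above 0 in 5 of 6 numbers, as it was in at least 5 for 27% of tested probes. Permuted only within array numbers, AT1G74470 gave p = 0.0625 (exact permutation test, two-sided), against 0.0313, the smallest possible, for CHLM and Z-ISO. Its rank within the array lay between percentiles 85.7 and 91.0 in H2O and between 90.8 and 93.7 in pStau (mean change 3.26 percentile points, exact permutation p = 0.00433, two-sided). As deposited, AT1G74470 ran from 1.08 to 1.61 in H2O and from 1.43 to 1.88 in pStau. It was thus higher in pStau as deposited too, on arrays whose median intensity was lower. The log2 change as deposited was 0.34 (limma adjusted p = 0.0647, with 52.3% of probes passing), and 1.14 above the median change of all tested probes. With arrays centred on their median it was 1.06 (limma adjusted p = 0.00271), but that centring keeps differences between bright and dim probes. As deposited, the median log2 change was -0.055 over the brightest 25% of tested probes and -0.84 over the middle 50%. Cyclic loess, which removes such a trend, gave 0.35 (limma adjusted p = 0.0348). The call of AT1G74470 ended with the table as deposited, with consecutive arrays as a random block (limma adjusted p = 0.186), without arrays 3 and 4 (log2 change 0.20, limma adjusted p = 0.150) and without arrays 5 and 6 (limma adjusted p = 0.132).

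**Figure D2:**
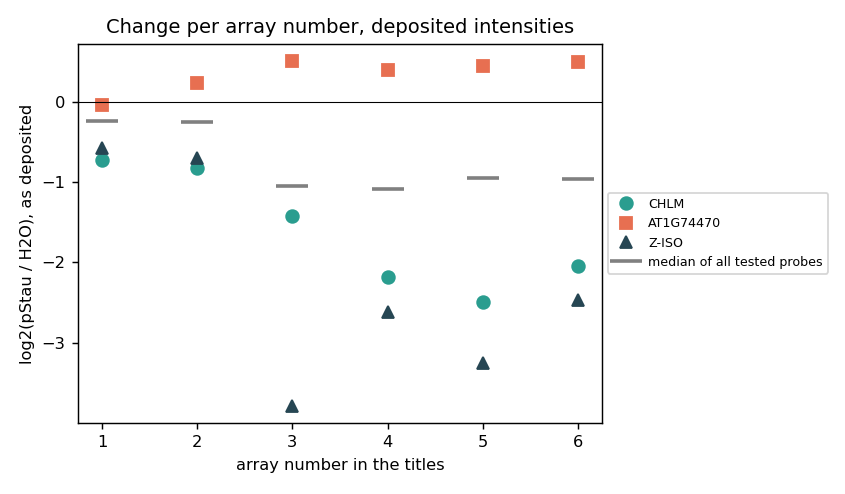
Log2 ratio of pStau to H2O in the deposited intensities (vertical axis) for each array number in the titles (horizontal axis), with grey bars for the median ratio of all 3256 tested probes. CHLM and Z-ISO lie below the grey bar and AT1G74470 above it at all 6 numbers, and the bar itself lies between -1.09 and -0.24.

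For the carotenoid enzyme, the normalised intensity of Z-ISO on the H2O arrays had a lowest value of 0.643, a median of 1.10 and a highest value of 1.57. On the pStau arrays Z-ISO had a lowest value of 0.182, a median of 0.368 and a highest value of 0.510. All 6 pStau arrays again lay below every H2O array, as for 9.28% of tested probes. Z-ISO fell by 1.61 on the log2 scale (SE 0.30, 95% interval -2.26 to -0.96, n = 6 arrays per group, limma adjusted p = 0.00244), or 3.05-fold (95% interval 1.94 to 4.79). Ranked over all 3256 tested probes from the lowest change to the highest, this change stood at percentile 4.30, against percentile 16.4 for CHLM and 73.0 for AT1G74470. Within its array Z-ISO moved from percentiles 71.3 to 91.5 in H2O to percentiles 32.2 to 62.9 in pStau (mean change -33.4 percentile points, exact permutation p = 0.00216, two-sided). As deposited, Z-ISO ran from 0.796 to 1.45 in H2O and from 0.0777 to 0.558 in pStau, and its log2 change was -2.23, or -1.43 relative to the median change of all tested probes. That median takes bright and dim probes together, whose median changes differed as given above for AT1G74470.

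The size of the Z-ISO change was uneven across array numbers. It was lower in pStau at each of the 6 numbers, as were 21.7% of tested probes, but the log2 change was -0.38 and -0.56 at numbers 1 and 2 and between -2.62 and -1.68 at numbers 3 to 6. Both groups contributed to this spread. In H2O, arrays 1 and 2 had the lowest Z-ISO log2 levels, with a mean of -0.52 against 0.14 for arrays 3 and 4 and 0.56 for arrays 5 and 6. In pStau, arrays 1 and 2 had the highest, with a mean of -0.99 against -1.98 and -1.68. Consecutive H2O arrays differed by at most 0.23 in Z-ISO log2 level, while the means of the 3 pairs of arrays spanned 1.09. In pStau the largest gap between consecutive arrays, that of arrays 3 and 4, was 0.96, about as wide as the span of 0.98 between the means of the pairs.

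A test of whether the change differed between the 3 sets of consecutive arrays, chosen after seeing the data, passed for Z-ISO (limma F test, adjusted p = 0.0301) and not for CHLM (0.214) or AT1G74470 (0.188). It passed for 35.9% of tested probes, and it counts the consecutive arrays of a group as separate samples. These calls depended on the scaling. Z-ISO no longer passed after median centring of the arrays (adjusted p = 0.0581) or with cyclic loess (0.0676). CHLM passed as deposited (0.0128, with 57.7% of probes passing) and after scaling to equal totals (0.0139, with 58.8% passing). AT1G74470 passed after median centring (0.00353, with 44% passing). The mean log2 changes of CHLM in the 3 sets were -0.54, -0.58 and -1.11, and those of AT1G74470 were 0.093, 0.56 and 0.33. As deposited, the median change of all probes was also smaller at numbers 1 and 2, at -0.24 and -0.25, than at numbers 3 to 6, where it ran from -1.09 to -0.94. The fall of Z-ISO passed with consecutive arrays as a random block (limma adjusted p = 0.0307). It did not pass with consecutive arrays averaged (limma adjusted p = 0.111) or without arrays 5 and 6 (log2 change -1.29, limma adjusted p = 0.0597).

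**Figure D3:**
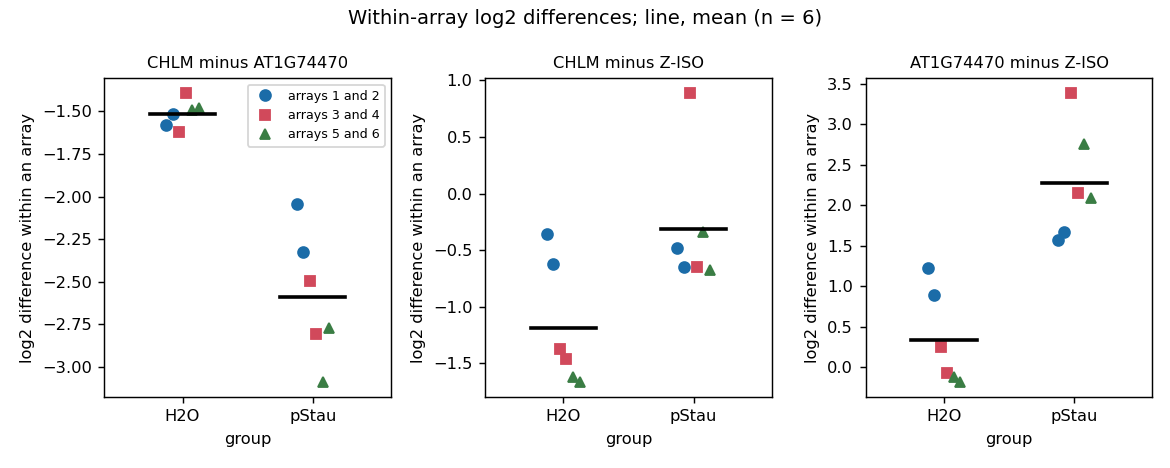
Difference of normalised log2 intensity between 2 genes within each array (vertical axis) by group (horizontal axis), for the 3 pairs of genes; lines are means of 6 arrays and colours and symbols mark consecutive numbers. The groups are apart for both pairs with AT1G74470, and overlap for CHLM minus Z-ISO, where 2 of 6 pStau arrays lie outside the H2O range.

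Whether the genes changed by different amounts was tested on the log2 difference between 2 genes within each array, for 3 pairs, with an exact permutation test over arrays and p-values adjusted over the 3 pairs. AT1G74470 and Z-ISO changed most unequally: the difference of their log2 changes was 1.94 (SE 0.37, 95% interval 1.12 to 2.76, exact permutation p = 0.00216, adjusted p = 0.00325, n = 6 arrays per group). Within arrays, AT1G74470 minus Z-ISO ran from -0.18 to 1.22 in H2O and from 1.57 to 3.39 in pStau, with no overlap. CHLM and AT1G74470, which serve the ring and the tail of the same pigment, also changed unequally, with a difference of -1.07 (SE 0.16, 95% interval -1.42 to -0.72, exact permutation adjusted p = 0.00325, n = 6 arrays per group). CHLM minus AT1G74470 ran from -1.62 to -1.39 in H2O and from -3.09 to -2.05 in pStau. In both pairs the genes moved in opposite directions, so these separations are not independent of the single-gene results above. How many other pairs of probes separate in this way was not counted. Permuting only within array numbers gave an adjusted p of 0.0469 for both pairs (exact permutation test), from the smallest possible unadjusted p of 0.0313. The permutation tests count consecutive arrays as separate samples. Differences between genes were not tested with consecutive arrays as a random block or averaged. Both differences kept their sign in each of the 3 sets of arrays, at 0.56, 2.68 and 2.58 for AT1G74470 minus Z-ISO and at -0.64, -1.14 and -1.44 for CHLM minus AT1G74470.

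The difference between the changes of CHLM and Z-ISO passed in fewer settings than those of the other pairs. It was 0.87 (SE 0.34, 95% interval 0.19 to 1.65, exact permutation adjusted p = 0.0368, n = 6 arrays per group), with values within arrays from -1.67 to -0.36 in H2O and from -0.68 to 0.89 in pStau. By sets of arrays it was -0.072, 1.54 and 1.13, so the first set showed a difference near 0. Permuting only within array numbers gave an adjusted p of 0.125 in the exact permutation test, where the smallest unadjusted p is 0.0313, and the result also ended with the table as deposited (difference 0.62, adjusted p = 0.0736). It ended without H2O array 3, 4, 5 or 6 or pStau array 3, with adjusted p-values of up to 0.0714, and without pStau array 3 the difference was 0.61.

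**Figure D4:**
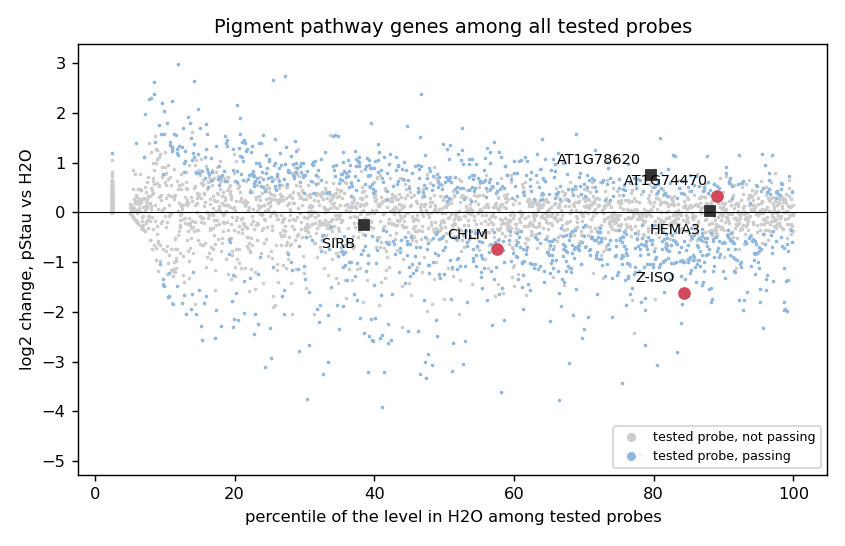
Log2 change between pStau and H2O (vertical axis) against the percentile of the mean H2O level (horizontal axis) for all 3256 tested probes, with CHLM, AT1G74470 and Z-ISO as circles and the other 3 listed pathway genes as squares. Z-ISO lies at a log2 change of -1.61, CHLM at -0.74 and AT1G74470 at 0.33, amid passing probes of both directions.

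The wider pathway was followed through lists of 91 genes in all, of which 6 had a single-gene probe, the members among them. Of these 6, 2 rose, 2 fell and 2 did not pass, where 16.5% of all tested probes rose and 18.8% fell. The count holds the 3 members, which were chosen with earlier results of these data known. Of the others, AT1G78620 rose, and HEMA3 and SIRB did not pass. The 6 genes had a median log2 change of -0.11 against -0.0041 over all tested probes. The list of chlorophyll and heme synthesis held 39 genes and 4 measured ones, namely CHLM, AT1G74470, HEMA3 and SIRB. The carotenoid list held 21 genes, of which Z-ISO alone was measured. The lists of chlorophyll breakdown, with 10 genes, and of the plastid isoprenoid pathway, with 11, had no measured gene. The enzymes on either side of CHLM and of Z-ISO in their pathways were therefore not measured by a single-gene probe.

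Of the other pathway genes, HEMA3, a member of the gene family of glutamyl-tRNA reductase, the entry step of tetrapyrrole synthesis, had a mean log2 level of 0.29 ± 0.29 (SD, n = 6) in H2O and 0.33 ± 0.30 (SD, n = 6) in pStau. Its log2 change of 0.035 had a 95% interval from -0.33 to 0.40 and did not pass (limma adjusted p = 0.902). The sign of the HEMA3 change was negative as deposited, at -0.10. With arrays centred on their median the change was 0.62 (limma adjusted p = 0.0136, with 45.4% of probes passing, 24.3% higher in pStau). That centring keeps differences between bright and dim probes. SIRB, the sirohydrochlorin ferrochelatase of siroheme synthesis, a side branch of the same pathway, had a log2 change of -0.25 (95% interval -0.62 to 0.12) and did not pass (limma adjusted p = 0.281). As deposited the log2 change of SIRB was -1.23 and passed (limma adjusted p = 0.0134, with 52.3% of probes passing, 46.7% lower in pStau). This was -0.42 relative to the median change of all tested probes. AT1G78620, placed on the list of tocopherol and phylloquinone synthesis by its locus, rose by a log2 change of 0.75 (SE 0.14, n = 6 arrays per group, limma adjusted p = 0.00263). It was higher in pStau at each of the 6 array numbers, a pattern that 18.4% of tested probes shared, with log2 changes from 0.50 to 1.19.

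The single-gene probes whose levels followed the members most closely over the 12 arrays were found among 529 probes with no zeros, by Pearson's r of normalised log2 levels. These values are descriptions, since all probes share the arrays, the normalisation and the difference between groups. For CHLM they were AT2G03200 (r = 0.95), AT5G14590 (0.94) and AT5G42070 (0.93), against a median r of 0.14 over the candidates. After subtracting the group means, their r values were 0.84, 0.79 and 0.75. For Z-ISO they were AT5G35100 (r = 0.94), AT4G26770 (0.93) and AT3G08000 (0.93), and 0.75, 0.74 and 0.69 within groups. For AT1G74470 they were AT2G26680 (r = 0.90), AT1G67930 (0.87) and AT4G01810 (0.87), and 0.74, 0.65 and 0.65 within groups. As deposited, r with AT1G74470 was 0.73, 0.32 and 0.92 for these 3 genes, so that of AT1G67930 was much lower than after normalisation. The r values of the genes named for CHLM and Z-ISO were 0.96 to 0.99 as deposited. Deposited values also hold the lower intensities of the pStau arrays, whose part in these r values was not tested. None of these 9 genes belongs to the pathway lists.

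**Figure D5:**
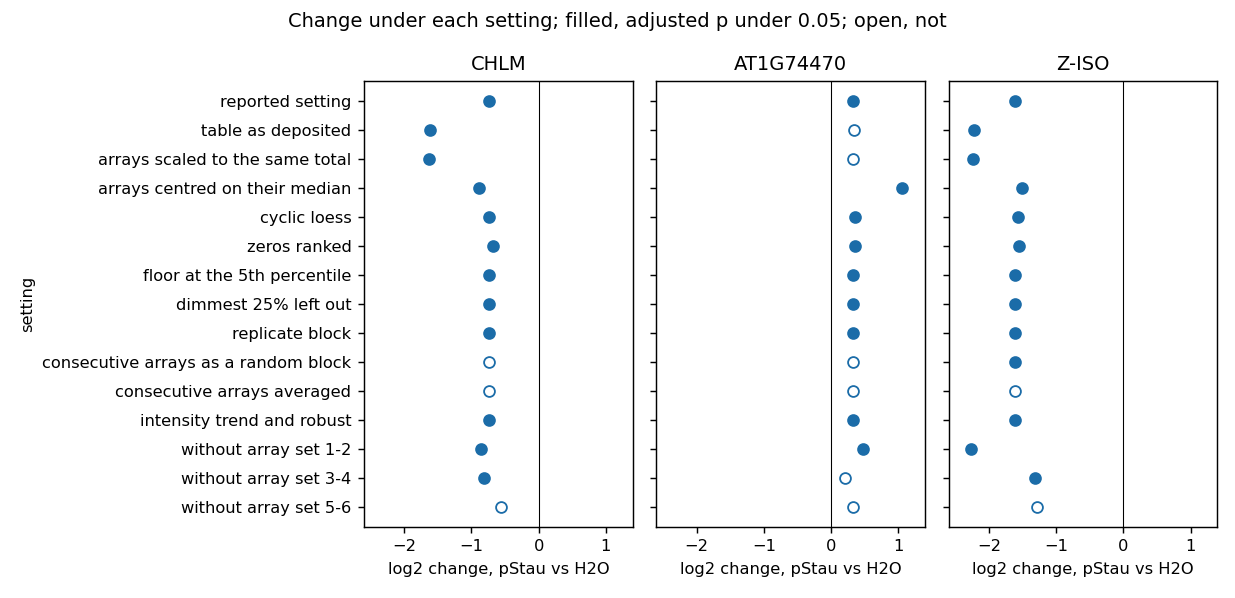
Log2 change between pStau and H2O (horizontal axis) for each gene under the reported setting and 14 others (vertical axis), filled where the limma adjusted p was under 0.05. The sign is the same in every row for each gene: CHLM runs from -1.63 to -0.56, AT1G74470 from 0.20 to 1.06 and Z-ISO from -2.27 to -1.29. Rows for the floor, dim probes, blocks, averaging and intensity trend repeat the reported estimate, so their sign could not differ.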

How the data were processed

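The deposited table holds 1 intensity per probe and array, between 0 and 100. The authors' background correction, scaling and centring are not given in the sources used here, so the values were taken as linear. Gene names came from the platform annotation (possibly outdated) and the RefSeq gene table of TAIR10.1 (690 of 692 single-gene probes matched). Probes of several genes were not used to name a gene.

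Array medians differed 2.87-fold, so positive intensities were quantile normalised. Zeros and values below the 1st percentile (0.0167) were set to it, and log2 was taken. The 183 probes at 0 everywhere were left out. A two-sided comparison of group means used limma 3.58.1 (lmFit and eBayes, R 4.3.3) with no block. P-values were adjusted by Benjamini-Hochberg over 3256 probes, with a threshold of 0.05. The procedure was tested on simulated data with independent noise on each array. That simulation does not cover likeness between consecutive arrays, whose correlation in the random block fit was 0.71. Differences between genes used exact permutation over 924 divisions of the arrays; their intervals hold the shifts that test did not refuse. The number of arrays limits the precision.

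Array numbers were taken to pair the groups: deviations from group means correlated with r from 0.31 to 0.54 in all 6 numbers. The source of the pairing is not stated in the labels. The text names the members, the measured pathway genes and, per member, the 3 probes with the highest r. Members and lists were chosen with earlier results of these data known. Alternatives covered scaling, floor, dim probes, blocks, spread estimates and left-out arrays. Figures used matplotlib 3.10.9 in Python 3.11.15.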

Additional observations from a re-analysis of the deposited data

How the results depend on the processing

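Over 14 other settings and 12 fits that each left out 1 array, CHLM and Z-ISO were lower and AT1G74470 higher in pStau in every one. The replicate block (array number, taken to pair the groups) changed no call of a single gene (limma adjusted p = 0.0116 for CHLM, 0.0395 for AT1G74470 and 0.0170 for Z-ISO, 39.3% of probes passing), but ended that of CHLM minus Z-ISO (0.87, adjusted p = 0.125). Consecutive arrays as a random block left 524 probes and 2 of the 6 pathway genes, and ended the calls of CHLM (-0.74) and AT1G74470 (0.33). Consecutive arrays averaged, with 3 values per group, left 3 probes in limma and 0 of the 6 pathway genes. This setting ended the calls of CHLM (-0.74, limma adjusted p = 0.123), AT1G74470 (0.33, 0.186), Z-ISO (-1.61, 0.111) and AT1G78620. Without arrays 5 and 6, 506 probes and 1 pathway gene passed, and CHLM (-0.56), AT1G74470 (0.32), Z-ISO (-1.29) and CHLM minus Z-ISO (0.72) did not. Without arrays 3 and 4, 483 probes passed, and AT1G74470 (0.20) and CHLM minus Z-ISO (0.51) did not. These fits have fewer samples or count them as fewer. The fit without arrays 1 and 2 also has fewer samples, but leaves out the numbers with the smallest Z-ISO changes. The median changes of all probes as deposited were smallest at those numbers too. In the fit without them 1350 probes passed, as did CHLM (-0.86), AT1G74470 (0.47) and Z-ISO (-2.27). The differences between genes passed there too, that of CHLM minus Z-ISO among them (exact permutation adjusted p = 0.0286). Why calls ended in some of these fits and not in others was not tested. As deposited, 183 probes were higher and 1519 lower, against 536 and 612 in the reported fit. With arrays scaled to the same total 1808 probes passed. AT1G74470 did not pass as deposited (0.34) or with the same total (0.33), and CHLM minus Z-ISO (0.62) did not pass in either or with arrays centred on their median. The cause was not tested.

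Leaving out single arrays gave 969 to 1248 probes, 4 pathway genes each time, and log2 changes of -0.82 to -0.65 for CHLM, 0.28 to 0.37 for AT1G74470 and -1.77 to -1.40 for Z-ISO, all passing. The differences ran from -1.19 to -0.95 for CHLM minus AT1G74470, 1.68 to 2.15 for AT1G74470 minus Z-ISO, and 0.61 to 1.05 for CHLM minus Z-ISO, which did not pass in 5 of 12. HEMA3, which did not pass, turned negative as deposited (-0.10), with the same total (-0.12), without arrays 1 and 2 (-0.0041), without arrays 3 and 4 (-0.11), and in 4 of the 12 fits without 1 array, whose values ran from -0.069 without H2O array 3 to 0.11 without pStau array 5. Signal over background is unknown, since the table gives no background.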
